A study of Rattus norvegicus with 6 samples.

Results

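The cytosolic sulfotransferases examined here are 9 genes, Sult1c2a, Sult1c2, Sult1a1, Sult1b1, Sult1c3, Sult1d1, Sult1e1, Sult2b1 and Sult4a1, read by 12 of the 41012 non-control probes on an oligonucleotide array. They were taken by gene name. Of the probes, 10 (7 genes) carried the name in the array's own annotation, and 2 were matched by their accession, because the array calls Sult1c3 "Sult1c1" and Sult1e1 "Ste". The family was chosen because Sult1c2a and Sult1c2 stood above the reference on both mutant arrays at both ages, more so in Cy/+. Those mutant ratios are therefore given as a description, without a test. Of the 12 probes 11, from 8 genes, passed the filter on dim probes, and Sult1e1 did not.

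The samples were kidneys of Han:SPRD rats carrying Cy, an inherited mutation that changes an amino acid of Anks6 and leads to polycystic kidneys. Total RNA of the left kidney was pooled by genotype and age (3 or 7 days). Cy5 carried the wild-type (+/+), heterozygous (Cy/+) or homozygous (Cy/Cy) pool, and Cy3 an age-matched +/+ reference pool, on 6 arrays with no dye swap. All animals shared the strain and free access to food and water. Each genotype thus had 1 array per age, and the 2 ages were its only repeats. How many animals made a pool, and whether pools were separate, is not in the labels. The p-values therefore measure the spread between these samples only, which may be technical. All 3-day arrays lay on slide 1 and all 7-day arrays on slide 2, with each genotype at the same position, so age and slide, and genotype and position, cannot be told apart. In a whole kidney, fewer cells of a type and less RNA per cell cannot be told apart either.

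Cytosolic sulfotransferases move a sulfonate group from the activated donor PAPS onto small hydroxyl or amine compounds. This makes the products more soluble, ends the action of many hormones, and can activate some procarcinogens. The SULT1 family acts mainly on phenols, thyroid hormones, catecholamines and oestrogens, the SULT2 family on hydroxysteroids such as cholesterol, and SULT4A1, found mainly in brain, has no settled substrate. In kidney these enzymes are known chiefly from the tubule epithelium, and a SULT1C2 protein is known from kidney mitochondria.

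The 2 arrays labelled +/+ went against their label. Each should set a +/+ kidney pool against another, yet Cy5 was rich in transcripts of other tissues and poor in those of the nephron. The marker medians over the mean of both ages were 4.75 on the log2 scale for 9 liver genes, 4.46 for 4 lung genes and 4.40 for 5 stomach genes. They were -3.04 for 9 proximal tubule genes and -4.73 for 3 genes of the thick ascending limb. The liver gene Cyp3a2, the lung genes Sftpb and Sftpa1, and the stomach genes Gkn1, Atp4a and Atp4b were well above background in 0 channels of the mutant arrays. They passed the filter through the arrays labelled +/+ alone, which favoured high values there in advance. Gkn2, Apoa2, Ahsg and Ttr, each with 1 such channel, needed those arrays too. The lung and stomach medians were set by genes that passed in this way. The tubule and limb genes were well above background in all channels of the mutant arrays. So were the liver genes Alb, Fgb, Fgg and Serpina1 (7.21, 4.75, 5.11 and 4.29) and the stomach gene Pgc (1.15). The phrase "the arrays labelled +/+" is used throughout because these arrays went against their label, and no mutant ratio here uses them. Each array had 43379 spots other than controls, of which 65.0% to 70.0% were well above background in Cy3 and 66.8% to 74.8% in Cy5. Precision is limited by how few arrays there are.

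The probes that carry the mutant difference come from a single stretch of chromosome 9. Which transcripts each can read was judged from those the array's annotation lists, and no probe was aligned to a transcript. Positions are those of the array's annotation on rat build rn3, whose genome and gene models were not used here, so exons and untranslated regions were not placed. Sult1c3 lies at chr9:531821-531880 and the probe that the array names RGD1559960 at chr9:591102-591161. Sult1c2 probe 1 follows at chr9:994117-994309, where 60 bases of sequence span 193 bases of genome, then the locus RGD1562392 at chr9:996120-996179 and Sult1c2 probe 2 at chr9:997621-997680, all on the plus strand. Both Sult1c2a probes read the minus strand, probe 1 at chr9:1030881-1030940 and probe 2 at chr9:1032194-1032253. The 60-base probes of the 2 leading genes, written 5′ to 3′ in lower case, are given first.
Sult1c2a probe 1: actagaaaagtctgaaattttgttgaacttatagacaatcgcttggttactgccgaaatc
Sult1c2a probe 2: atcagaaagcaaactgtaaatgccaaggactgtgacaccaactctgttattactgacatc
Sult1c2 probe 1: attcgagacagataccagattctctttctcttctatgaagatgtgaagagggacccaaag
Sult1c2 probe 2: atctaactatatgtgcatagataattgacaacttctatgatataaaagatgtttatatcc

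The probes that the array names RGD1562392 and RGD1559960 read homologous stretches. They overlap over 48 bases, of which 43 match, and capitals mark the 5 bases of the overlap that differ.
RGD1562392: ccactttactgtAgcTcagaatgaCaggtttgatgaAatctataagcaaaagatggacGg
RGD1559960: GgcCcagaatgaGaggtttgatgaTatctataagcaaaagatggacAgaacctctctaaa

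No other pair among these probes overlapped in sequence. The annotation nonetheless ties them together. Both Sult1c2a probes and the RGD1559960 probe also list the Sult1c2 transcript. The gene table of assembly GRCr8 holds RGD1559960 as a synonym of Sult1c2al1 and RGD1562392 as a synonym of Sult1c2a, although the latter probe sits between the Sult1c2 probes on rn3. Near-identical copies can therefore share signal here, and values of single genes in this cluster are uncertain to that extent.

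Because the probes of this cluster stood together in the mutant pools, the start regions of its genes were compared (RefSeq, assembly GRCr8, 250 bases before to 50 after a transcript start). Sult1c2 (chr9:7436731-7437030, plus strand) and Sult1c2al1 (chr9:7529294-7529593, minus strand) share a stretch of 151 bases without gaps, of which 15 differ (90.1% identity). It runs from base 21 to 171 of the first window and from 150 to 300 of the second. Capitals mark the bases of the stretch that are the same in both.
Sult1c2: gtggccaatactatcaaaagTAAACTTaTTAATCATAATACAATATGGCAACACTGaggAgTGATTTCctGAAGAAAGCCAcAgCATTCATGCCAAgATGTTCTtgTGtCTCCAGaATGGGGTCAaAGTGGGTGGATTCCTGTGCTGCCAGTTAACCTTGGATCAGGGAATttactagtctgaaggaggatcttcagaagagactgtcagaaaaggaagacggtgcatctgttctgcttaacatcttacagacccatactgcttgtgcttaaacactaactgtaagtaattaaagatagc
Sult1c2al1: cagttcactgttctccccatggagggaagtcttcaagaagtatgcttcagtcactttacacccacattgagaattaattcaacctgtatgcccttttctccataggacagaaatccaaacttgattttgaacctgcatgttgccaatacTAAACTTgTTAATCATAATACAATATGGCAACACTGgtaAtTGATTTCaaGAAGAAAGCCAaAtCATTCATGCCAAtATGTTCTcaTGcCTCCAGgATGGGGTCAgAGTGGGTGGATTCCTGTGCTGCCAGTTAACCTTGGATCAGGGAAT

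The Sult1c2a window (chr9:7103153-7103452, minus strand) shared no run longer than 7 bases with that of Sult1c2 and 8 with that of Sult1c2al1.
Sult1c2a: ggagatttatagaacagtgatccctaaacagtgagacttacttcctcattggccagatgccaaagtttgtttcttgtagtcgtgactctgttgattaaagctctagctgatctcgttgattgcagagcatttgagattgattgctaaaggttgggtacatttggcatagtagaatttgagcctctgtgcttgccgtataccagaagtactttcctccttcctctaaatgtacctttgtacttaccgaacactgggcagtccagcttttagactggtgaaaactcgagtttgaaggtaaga

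Since the study's title names RXR, the letters AGGTCA, the core element to which RXR and its partners bind, was searched on both strands. It was in none of these 3 windows and in 1 of the 8 member windows at hand, that of Sult1e1, against 16.2% of 33469 rat windows of the same length. The letters GTTAAT, a core of the element bound by the renal and hepatic factor HNF1, were in the Sult1c2al1 window and in 0 of the 8 member windows, against 7.45% of all. A match is a description of letters, not of a binding site.

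Sult1c2a, which encodes a SULT1C2-type enzyme, had the highest mean mutant ratios of the family after loess, with probe 1. With the software's log ratios Sult1c2 probe 2 had the highest means, 2.22 against 1.97 for Sult1c2a probe 1 in Cy/+ and 1.19 against 1.18 in Cy/Cy. The scanner software's processed signal of probe 1 in the mutant pool and the reference of the same array was 12200 against 3310 (Cy/+, 3 days) and 6540 against 1580 (Cy/+, 7 days). In Cy/Cy it was 5640 against 2460 at 3 days and 3150 against 1410 at 7 days. All 4 mutant signals were above their own reference. Both Cy/+ signals were above the Cy/Cy signal of the same age, but so were the references of the Cy/+ arrays above those of Cy/Cy. These signals are not scaled between arrays. The log2 ratios after loess were 1.84 and 1.97 in Cy/+ and 1.16 and 1.11 in Cy/Cy (3 and 7 days), a mean of 3.74-fold and 2.19-fold (SD of the log2 ratio 0.08 and 0.04, n = 2 arrays each).

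The other Sult1c2a probe gave the same order. Its processed signals in mutant and reference were 8230 and 2730, then 3760 and 1260, in Cy/+ at 3 and 7 days, and 4750 and 2120, then 1970 and 1100, in Cy/Cy. Its log2 ratios were 1.61 and 1.52 in Cy/+ and 1.17 and 0.83 in Cy/Cy, a mean of 2.96-fold and 1.997-fold (SD 0.06 and 0.24, n = 2). On either Sult1c2a probe both Cy/+ ratios were above both Cy/Cy ratios. The family was chosen for being higher in Cy/+, so nothing is read from this order.

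Sult1c2, the neighbouring gene of the same subfamily, stood above the reference on all 4 mutant arrays with both probes. Probe 1 had processed signals of 5150 against 1490 and 2160 against 718 in Cy/+ at 3 and 7 days, and of 2210 against 1160 and 1150 against 644 in Cy/Cy. The log2 ratios were 1.75 and 1.496 in Cy/+ and 0.91 and 0.79 in Cy/Cy, a mean of 3.08-fold and 1.81-fold (SD 0.18 and 0.08, n = 2). Again both Cy/+ ratios were above both Cy/Cy ratios, the direction by which the family was chosen.

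Sult1c2 probe 2 gave signals close to background. Its mutant signals were 292 and 105 in Cy/+ and 140 and 44.3 in Cy/Cy (3 and 7 days), and its references 75.7, 18.6, 54.0 and 22.1. The 7-day references were not well above background, so the 7-day ratios have only the mutant side measured. Its log2 ratios were 1.36 and 0.86 in Cy/+ and 0.82 and 0.25 in Cy/Cy (mean 2.16-fold and 1.45-fold, SD 0.35 and 0.41, n = 2). The 7-day Cy/+ value lay just above the 3-day Cy/Cy value, so the genotypes came close to overlapping, but Cy/+ was the higher at each age.

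**Figure D1:**
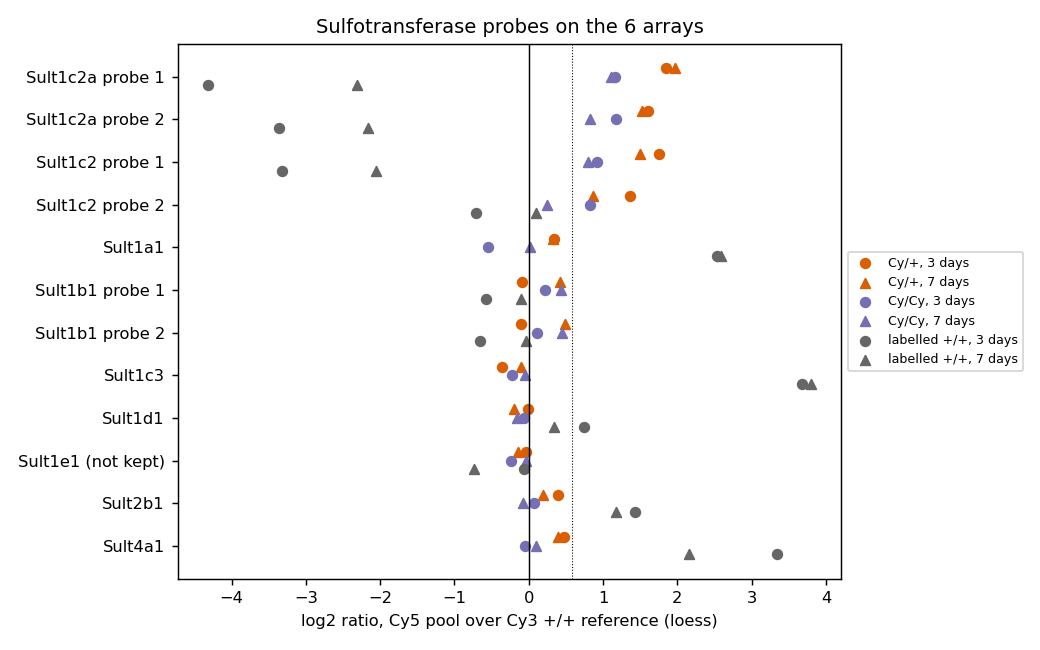
Log2 ratio of each Cy5 pool over its Cy3 +/+ reference (x axis) for the 12 sulfotransferase probes (y axis). Colours give the genotype of the Cy5 pool, circles 3 days and triangles 7 days, 1 point per array, and the dotted line marks 1.5-fold. The Sult1c2a and Sult1c2 probes lie to the right in both mutants, and the Cy/+ points lie farther right than the Cy/Cy points of the same age.

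By a rule of at least 1.5-fold above the reference at both ages, 4 of the 11 member probes qualified in Cy/+, where 0.706% of the 30896 probes tested did, and 3 in Cy/Cy, where 0.0874% did. The same 3 qualified in both mutants, as did 0.055% of all probes. Since the family was chosen on these ratios, nothing is read from the counts. All 4 were Sult1c2a and Sult1c2 probes, and Sult1c2 probe 2 was the one outside in Cy/Cy. Just inside the rule were Sult1c2 probe 2 in Cy/+ (1.82-fold at its lower age) and Sult1c2 probe 1 in Cy/Cy (1.73-fold). Just outside were Sult4a1 in Cy/+ (1.31-fold) and Sult1c2 probe 2 in Cy/Cy (1.19-fold). With the software's log ratios both of these passed, so that 5 member probes qualified in Cy/+ and 4 in Cy/Cy. The counts were also 5 and 4 under median centring, where Sult1a1 in Cy/+ and Sult1b1 probe 1 in Cy/Cy joined. No member probe stood 1.5-fold below the reference at both ages, as did 0.398% of probes in Cy/+ and 0% in Cy/Cy. In 7 of the 11 the Cy/+ ratio was above the Cy/Cy ratio at both ages, as it was in 27.8% of all probes. On the log2 scale the Cy/+ excess over Cy/Cy in the Sult1c2a and Sult1c2 probes ran from 0.44 to 0.84 at 3 days and from 0.62 to 0.86 at 7 days.

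**Figure D2:**
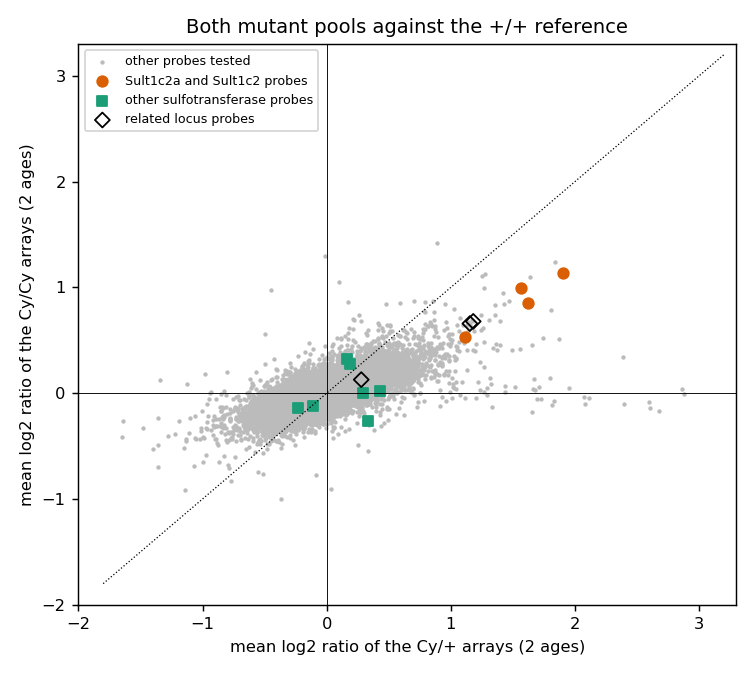
Mean log2 ratio of the 2 Cy/+ arrays (x axis) against that of the 2 Cy/Cy arrays (y axis) for the 30896 probes tested. Sult1c2a and Sult1c2 probes are orange circles, the other member probes green squares, related loci open diamonds, and the dotted line marks equal ratios. The 4 orange probes lie at 1.11 to 1.90 in Cy/+ and 0.53 to 1.13 in Cy/Cy, below the line of equal ratios, while the other members lie near 0.

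The related loci RGD1562392, a synonym of Sult1c2a in the gene table, and RGD1559960 stood in the same direction. RGD1562392 had log2 ratios of 1.17 and 1.13 in Cy/+ and 0.83 and 0.49 in Cy/Cy (3 and 7 days), and RGD1559960 had 1.44 and 0.92, and 0.88 and 0.47. Both loci were thus higher in Cy/+ than in Cy/Cy at each age. Another chromosome 9 sequence, XM_343516, described on the array as similar to the same enzyme, was well above background in 3 of 8 channels of the mutant arrays, none of them a reference, and had ratios of 0.07 to 0.48.

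The size of the dim ratios differed between the loess values and the log ratios that the scanner software wrote, which differ in background correction, offset and dye normalization together. With the software's ratios, Sult1c2 probe 2 stood at 1.95 to 2.50 in Cy/+ and 1.00 to 1.37 in Cy/Cy, and RGD1559960 at 2.01 to 2.06 and 1.30 to 1.39. The Sult1c2a probe 1 ratios moved little, to 1.88 to 2.05 and 1.16 to 1.20. Under both treatments the Cy/+ ratio exceeded the Cy/Cy ratio of the same age on all 6 probes of the cluster.

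**Figure D3:**
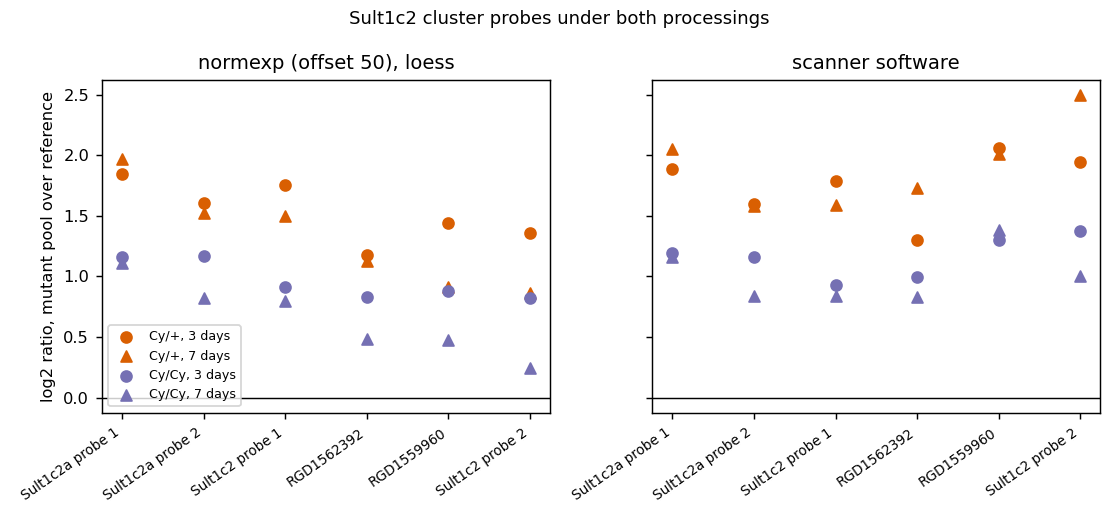
Log2 ratio of the mutant pools over the reference (y axis) for 6 probes of the Sult1c2 cluster (x axis), after normexp correction with offset 50 and loess (left) and as written by the scanner software (right). Colours give the genotype, circles 3 days and triangles 7 days, 1 point per array. Sult1c2 probe 2 lies lower on the left, where it spans 0.25 to 1.36, than on the right, where it spans 1.00 to 2.50.

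The other members had smaller mutant ratios. Sult1a1, the main phenol sulfotransferase, had processed signals of 1330 and 459 in Cy/+ and 520 and 307 in Cy/Cy (3 and 7 days) against references of 1030, 355, 764 and 307. Its log2 ratios were 0.34 and 0.32 in Cy/+ but -0.55 and 0.02 in Cy/Cy, so the pools stood on opposite sides of the reference at 3 days. Sult1b1, which sulfonates phenols and thyroid hormones, was read by 2 probes on chromosome 14 (chr14:22031815-22031874 and chr14:22031714-22031773). Their log2 ratios were -0.10 and -0.11 in Cy/+ at 3 days, 0.42 and 0.49 in Cy/+ at 7 days, 0.22 and 0.11 in Cy/Cy at 3 days, and 0.43 and 0.45 in Cy/Cy at 7 days. Both probes had their higher values at 7 days in both mutants.

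Sult2b1, the cholesterol and pregnenolone sulfotransferase, had log2 ratios of 0.40 and 0.19 in Cy/+ and 0.07 and -0.07 in Cy/Cy. Sult4a1 was well above background in 2 of the 8 channels of the mutant arrays, both of them Cy/+ pools. Against its dim reference the Cy/+ pools were at least 1.35-fold higher, from log2 ratios of 0.47 and 0.39, and the scanner software's ratios were 1.28 to 1.46. The Cy/Cy pools, like their reference, were not well above background. Sult1c3, which activates N-hydroxyarylamines, had signals of 17.5 to 45.3 in mutant and reference pools and log2 ratios of -0.36 to -0.05, with 5 of the 8 channels well above background. With the software's ratios these were -1.21 to -0.12.

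Sult1d1, a rodent enzyme for catecholamines and other amines, was well above background in 0 of the 8 channels of the mutant arrays, with signals of 3.70 to 7.29. Sult1e1, the oestrogen sulfotransferase, was likewise above background in 0 of 8, with signals of 3.50 to 4.53. Of the 12 channels of the study it passed in 1, the reference of the 7-day array labelled +/+. For these 2 genes no level was detectable on the mutant arrays with these probes.

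The change of the mutant ratios with age was not used in the choice of members and was tested in limma with genotype as a term (4 arrays, 1 residual degree of freedom before moderation). No member probe passed after Benjamini-Hochberg adjustment, against 0.0356% of all probes (11 probes, with 3004 at an unadjusted p under 0.05). The largest difference, 7 minus 3 days, was -0.54 ± 0.10 (SE) on the log2 scale for Sult1c2 probe 2 (limma adjusted p = 0.229). It differed between settings: it was 0.09 with the software's log ratios, and -0.75 with adjusted p = 0.0172 under median centring. For Sult1c2a probe 1 the difference was 0.03 ± 0.11 (adjusted p = 0.954) and for Sult1b1 probe 2 it was 0.46 ± 0.11 (adjusted p = 0.308).

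The level of the cluster fell from 3 to 7 days in all 3 kidney pools. On the log2 scale after normalization between channels, Sult1c2a probe 1 stood at 11.30 in the 3-day reference, 13.01 in Cy/+ and 12.59 in Cy/Cy, and at 10.39, 12.36 and 11.48 at 7 days. Each pool was lower at 7 days, although the 7-day Cy/+ pool remained above the 3-day reference. The change was -0.89 ± 0.10 (SE), to 53.9% of the 3-day level (limma with the pool as a block, adjusted p = 0.0190, lower in 3 of 3 pools). Sult1c2a probe 2 changed by -0.92 ± 0.10 (adjusted p = 0.0190), Sult1c2 probe 1 by -0.80 ± 0.08 (adjusted p = 0.0174) and Sult1c2 probe 2 by -0.77 ± 0.12 (adjusted p = 0.0270), each lower in 3 of 3 pools.

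Sult1a1 was the only other member called. Its levels were 9.91, 10.30 and 9.32 at 3 days and 8.83, 9.18 and 8.81 at 7 days in the reference, Cy/+ and Cy/Cy, so the ages did not overlap. It fell by 0.91 on the log2 scale (SE 0.13, limma adjusted p = 0.0244). In all, 5 of the 11 member probes fell and 0 rose, where 4.28% of all probes fell and 5.44% rose. Of these 5, 4 were Sult1c2a and Sult1c2 probes, which can share signal and are not separate evidence. The median difference of all probes was 0.01.

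**Figure D4:**
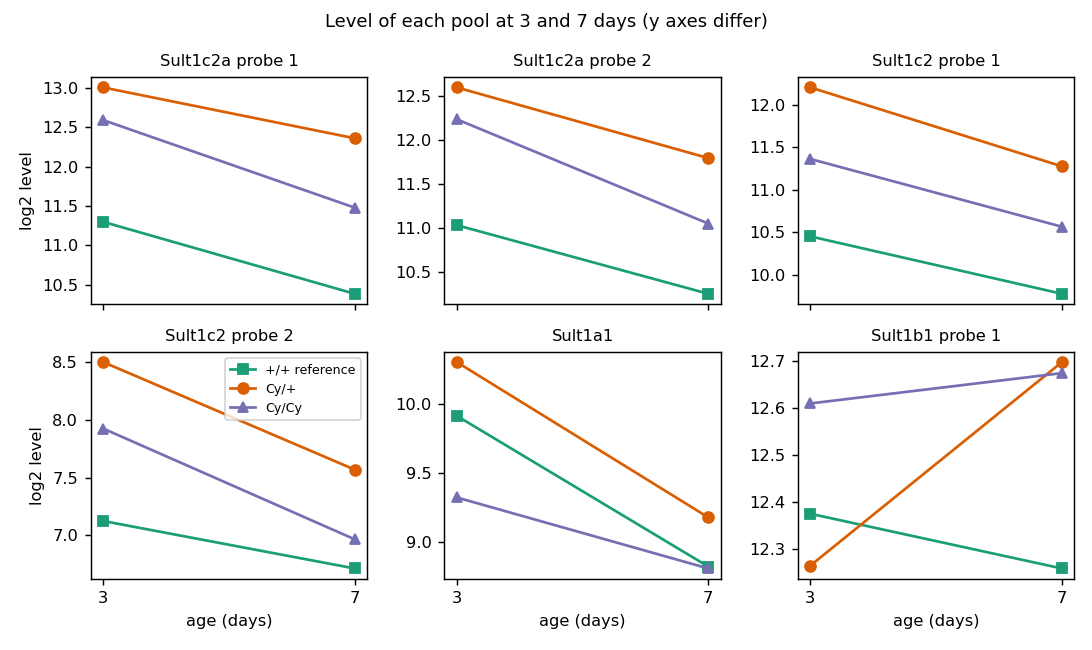
Log2 level of 6 member probes (y axis, scales differ between panels) in the +/+ reference, Cy/+ and Cy/Cy pools at 3 and 7 days of age (x axis), 1 value per pool and age. All lines fall for the Sult1c2a, Sult1c2 and Sult1a1 probes, and those of Sult1b1 probe 1 do not share a direction.

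The reference value of each age is the mean Cy3 of the Cy/+ and Cy/Cy arrays, so it shares those arrays with the mutant pools and the 3 values per age are not independent. Without the reference pool none of the 5 calls passed (limma adjusted p = 0.109 to 0.175, changes of -0.996 to -0.82), and without Cy/Cy those of Sult1c2a probe 1 (0.0565), Sult1c2 probe 1 (0.0564) and Sult1c2 probe 2 (0.0813) did not. The direction was the same under every alternative run, and the size reached -1.51 for Sult1c2 probe 2 when processed signals were scaled by their median. In the Cy3 channel of all 6 arrays, the 3 hybridisations of Sult1c2a probe 1 ran from 11.02 to 11.44 at 3 days and, at 7 days, from 10.08 to 10.40, without overlap.

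The remaining members were not called with age. Sult2b1 differed by -0.27 ± 0.07 (limma adjusted p = 0.0745), Sult1b1 probes 1 and 2 by 0.13 ± 0.11 and 0.12 ± 0.13, and Sult1c3 by -0.11 ± 0.08. Sult1d1 and Sult4a1, near background, differed by 0.12 and -0.03. RGD1562392, not a member by its array name but a synonym of Sult1c2a in the gene table, changed by -0.94 ± 0.08 (limma adjusted p = 0.0161). RGD1559960 changed by -0.72 ± 0.12 (limma adjusted p = 0.0273). Both probes belong to the same cluster and can share its signal, so their fall is not separate evidence.

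On the arrays labelled +/+ the family split. Sult1c2a and Sult1c2 were far lower in Cy5 than in the reference. The processed signal of Sult1c2a probe 1 was 93.4 in Cy5 against 4010 in Cy3 at 3 days and 223 against 1880 at 7 days, and that of Sult1c2 probe 1 was 87.6 against 1780 and 112 against 903. The mean log2 ratio was -3.32 ± 0.41 (SE) for Sult1c2a probe 1 (9.96-fold lower, limma adjusted p = 0.0013), -2.76 ± 0.26 for Sult1c2a probe 2 (6.77-fold lower, adjusted p = 0.000431) and -2.68 ± 0.27 for Sult1c2 probe 1 (6.42-fold lower, adjusted p = 0.000552), each lower on 2 of 2 arrays. These tests took the spread from all 6 arrays. In a fit on the 2 arrays labelled +/+ alone, limma adjusted p was 0.026 for Sult1c2a probe 1. It was 0.0142 for Sult1c2a probe 2 and 0.0166 for Sult1c2 probe 1. For Sult1c2a probe 1 the mean was -4.25 with the software's log ratios and -1.94 after scaling between arrays. Sult1c2 probe 2 had ratios of -0.71 and 0.10 and was not called (adjusted p = 0.334).

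Sult1c3, Sult4a1, Sult1a1 and Sult2b1 were higher in Cy5 than in the reference. Sult1c3 had signals of 1430 in Cy5 against 75.7 in Cy3 at 3 days and 1820 against 55.3 at 7 days, a log2 ratio of 3.74 ± 0.10 (SE, 13.4-fold, limma adjusted p = 4.41e-06). After scaling between arrays it was 2.23, and with the software's log ratios 4.65. Sult4a1 had 2450 against 236 and 564 against 62.7, a log2 ratio of 2.75 ± 0.26 (limma adjusted p = 0.000375). For Sult4a1 the 3-day reference on this array stood apart: its log2 Cy3 level was 7.61, against 6.39 and 6.44 on the other 3-day arrays. Sult1a1 had 6560 against 1230 and 3120 against 513, a log2 ratio of 2.56 ± 0.14 (5.90-fold, adjusted p = 4.3e-05). In the fit on these 2 arrays alone, limma adjusted p was 0.00188 for Sult1c3, 0.0142 for Sult4a1 and 0.00253 for Sult1a1.

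Sult2b1 was also higher, by 1.30 ± 0.11 (SE) on the log2 scale (limma adjusted p = 0.000212, and 0.012 on these 2 arrays alone). Sult1d1 had signals of 38.0 and 27.0 in Cy5 where the reference was not well above background, at least 1.43-fold higher. It passed the filter through these 2 Cy5 channels alone and so had to differ, and it is given as a description, without a test. Sult1b1 probes 1 and 2 stood at -0.34 ± 0.17 and -0.34 ± 0.20 and were not called. Of the 10 member probes other than Sult1d1, 4 were higher and 3 lower, where 26.6% of all probes were higher and 18.4% lower.

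**Figure D5:**
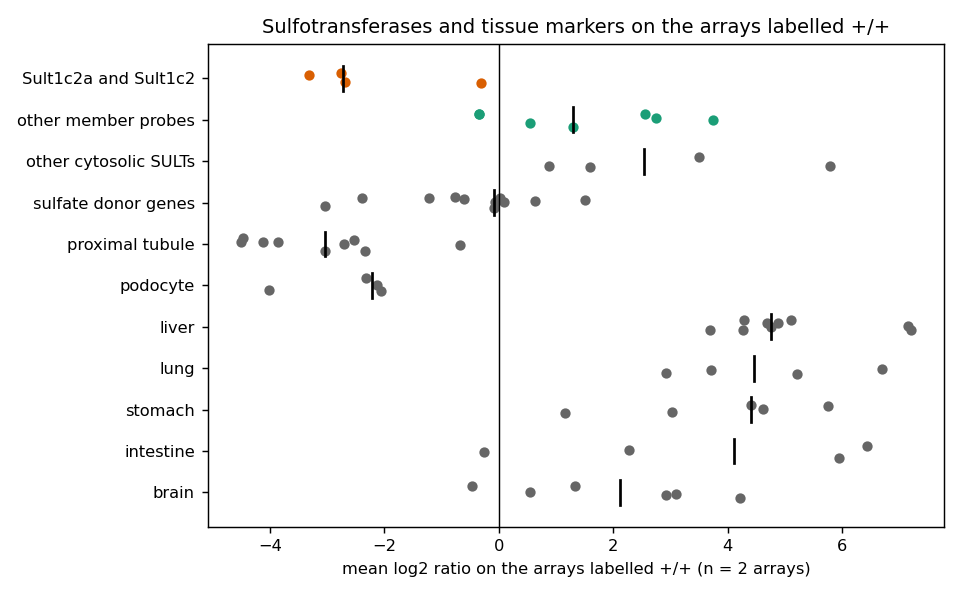
Mean log2 ratio of the 2 arrays labelled +/+ (x axis) for member probes, related gene lists and tissue markers (y axis), 1 point per probe or gene, with the median of each row as a bar. Of the Sult1c2a and Sult1c2 probes 3 lie at -3.32 to -2.68, within the range of the proximal tubule markers (-4.50 to -0.68), and the other members range from -0.34 to 3.74.

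Kidney and other tissue markers moved with these values. All 9 proximal tubule genes measured were lower on the arrays labelled +/+, with 3-day and 7-day list medians of -3.43 and -2.66, where Sult1c2a probe 1 had ratios of -4.32 and -2.31. All 9 liver genes were higher, with medians of 5.11 and 4.43, though genes such as Cyp3a2 passed the filter through these arrays alone. Of all probes 18.4% were called lower and 26.6% higher. What part these tissues had in the sulfotransferase values was not tested.

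On the mutant arrays the medians of the same tubule list were 0.26 and 0.46 in Cy/+ and 0.20 and 0.25 in Cy/Cy (3 and 7 days), and 2 of 9 genes were 1.5-fold above the reference at both ages in Cy/+, where 0.706% of all probes were. These were Lrp2, the endocytic receptor megalin (log2 0.97 and 0.76), and the amino acid transporter Slc7a13 (1.36 and 1.43). The sodium phosphate transporter Slc34a1 (-0.43 and 0.04) and the glucose transporter Slc5a2 (-0.42 and -0.05) were not. Among liver genes Fgb, a fibrinogen chain, was the 1 of 9 above that fold (0.63 and 0.65), and the list's medians were 0.02 and 0.08 in Cy/+. With age 1 tubule gene of 9 rose and 1 fell, where 5.44% of all probes rose and 4.28% fell.

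Markers of other cells also differed between the mutant pools and the reference, most on the 3-day Cy/+ array. There the adipose list (5 genes) had a median log2 ratio of 1.46, with the adipocyte hormone Adipoq at 2.84 and the fatty acid carrier Fabp4 at 2.19, and the skin keratins Krt5 and Krt14 stood at 1.32 and 1.80. The adipose median was -0.08 in Cy/+ at 7 days and 0.46 and 0.29 in Cy/Cy (3 and 7 days), where Adipoq had 0.69 and 0.97. Kidney lists differed on the 3-day Cy/+ array, with medians of -0.62 for the thick ascending limb (3 genes) and -0.53 for podocytes (4 genes). The median was -0.04 for the collecting duct (3 genes) and 0.26 for the proximal tubule (9 genes). With age, Adipoq and Fabp4 differed by -1.43 and -1.11 on the log2 scale and were not called (limma adjusted p = 0.177 and 0.0906). The part of tubule, fat or skin content in the Sult1c2 ratios and in their fall with age was not tested.

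The genes that supply and remove the sulfate donor had list medians near the reference, 0.02 in Cy/+ and 0.04 in Cy/Cy. Of 14 listed, 11 were measured, and 0 stood 1.5-fold from the reference at both ages in either mutant. Of all probes 0.706% stood above and 0.398% below in Cy/+, and 0.0874% and 0% in Cy/Cy. Nothing is therefore read from the count. Papss1 and Papss2, which make PAPS, had mean log2 ratios of 0.00 and 0.26 in Cy/+ and -0.04 and 0.09 in Cy/Cy. The PAP phosphatases Bpnt1 and Impad1 had 0.28 and -0.11 in Cy/+ and 0.16 and -0.03 in Cy/Cy.

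The renal sulfate carriers gave the list's largest mean mutant ratios. Slc13a1, the sodium sulfate cotransporter of the tubule, had log2 ratios of 0.26 and 0.71 in Cy/+ and 0.27 and 0.53 in Cy/Cy (3 and 7 days). The basolateral sulfate anion carrier Slc26a1 had 0.16 and 0.44, and 0.00 and 0.51. Both had their higher values at 7 days, yet neither passed the test of that difference (limma adjusted p = 0.393 and 0.358).

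The remaining members of the list lay between -0.26 and 0.37 in both mutants, as means of the 2 ages. The PAPS carriers Slc35b2 and Slc35b3 had mean log2 ratios of 0.02 and 0.37 in Cy/+, and the sulfate carrier Slc26a2, close to background, had -0.04. Steroid sulfatase (Sts), which takes sulfate off steroids, had -0.21, and sulfite oxidase (Suox) -0.26. From 3 to 7 days 1 of the 11 was called, Papss2, which fell by 0.47 on the log2 scale (SE 0.07, limma adjusted p = 0.0234). Of all probes 4.28% fell and 5.44% rose, so nothing is read from this count. On the arrays labelled +/+ 5 of 11 were lower and 2 higher, where 18.4% of all probes were lower and 26.6% higher. Slc13a1 (-3.04 ± 0.20) and Slc26a1 (-2.39 ± 0.14) led the lower and Sts (1.501 ± 0.14) the higher.

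Other sulfotransferases were compared in the same way. Of the 12 further cytosolic enzymes listed, 4 were measured, the hydroxysteroid sulfotransferases Sult2a1, Sult2a2 and Sult2a6 and the less known Sult5a1, with medians of -0.06 in Cy/+ and 0.01 in Cy/Cy and none 1.5-fold from the reference. The 3 Sult2a genes, enzymes of the liver, were well above background in 0 of the 8 channels of the mutant arrays, so of these only Sult5a1 had a level on those arrays. On the arrays labelled +/+ Sult5a1 was called higher (log2 ratio 1.60), where 26.6% of all probes were. The Sult2a genes passed the filter through those arrays alone, which favoured high values there in advance. Sult2a1, Sult2a2 and Sult2a6 had log2 ratios of 0.89, 3.50 and 5.78 there, given as a description, without a test. Of 33 Golgi sulfotransferases, which act on glycans and protein tyrosine, 22 were measured and 0 stood 1.5-fold from the reference at both ages. For both lists this is near the share over all probes (0.706% above and 0.398% below in Cy/+), so nothing is read from it. The nearest was Chst9 with 0.58 and 0.71 in Cy/+ (3 and 7 days). With age 2 of the 22 rose and 1 fell, where 5.44% of all probes rose and 4.28% fell.

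Enzymes of other conjugation reactions had no shared direction as a list, though some genes of a family stood together. Of 57 listed, 38 were measured, and in Cy/+ 3 were 1.5-fold above and 1 below the reference at both ages, where 0.706% and 0.398% of all probes were, against none in Cy/Cy. Histamine methyltransferase (Hnmt) had log2 ratios of 3.07 and 1.71 in Cy/+ but 0.42 and 0.26 in Cy/Cy, with its reference well above background on 2 of the 4 mutant arrays. The bilirubin glucuronosyltransferase Ugt1a1 had 0.97 and 0.93, and 0.37 and 0.33. Its relative Ugt1a2 had 0.58 and 0.68, and 0.30 and 0.22, while Ugt1a6 had both signs. The other gene above that fold, Nat8, had 0.66 and 0.70, and 0.36 and 0.86. The glutathione transferase Gstm5 was below the reference, with -1.53 and -0.73 in Cy/+ and -0.64 and -0.24 in Cy/Cy. Gstm6 (-0.94 and -0.46, and -0.58 and -0.14) and Gstm7 (-0.51 and -0.27, and -0.16 and -0.19) were below it too. Gstm1, Gstm2, Gstm3 and Gstm4 had both signs. The list's medians were 0.15 in Cy/+ and 0.02 in Cy/Cy.

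The genes whose mutant ratios were most like those of Sult1c2a probe 1 were named by the root mean square difference over the 4 mutant arrays, among 11930 named probes outside the family. Among them were the serine protease Prss30 (0.40), Dleu7 (0.45), Gclc, the catalytic subunit of the rate-limiting enzyme of glutathione synthesis (0.48), the phosphatase Ptprq (0.49) and the organic anion transporter family member Slc22a24 (0.59). Gclc had log2 ratios of 1.82 and 1.66 in Cy/+ and 0.35 and 0.70 in Cy/Cy (3 and 7 days), and so lay lower in Cy/Cy than Sult1c2a. On the arrays labelled +/+ they parted: Slc22a24 stood at -5.03 and -4.06, while Prss30 stood at 0.61 and 0.37. Over all 6 arrays Slc22a24 had the smallest difference of those named (0.91).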

How the data were processed

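Per the file headers, the arrays were read with Agilent Feature Extraction 9.5.1.1 (the series text names an older version and another array product) and carry rn3 positions. Raw spot and local background signals were deposited as intensity values, not normalized. Processed signals, also intensity values, had their background subtracted and their dyes normalized by that software, per the file headers. The log10 ratio of the processed channels (Cy5 over Cy3) is as deposited, and the series table of the authors repeats it (largest difference 0). The files also give a p-value for each spot's ratio, from the software per the file headers, not used here.

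In R 4.3.3 with limma 3.58.1, signals were corrected by normexp (offset 50), normalized by loess with control and outlier spots at weight 0, and averaged per probe. The filter asked for a usable value on all 6 arrays and, on 2 or more, a signal well above background in one of the channels, which left 30896 probes. Names came from accessions (10735 probes), symbols (5577) or synonyms (3730) of a GRCr8 gene table, and 20970 had no match. Where a gene had several probes in a list, the brightest stood for it.

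The arrays labelled +/+ were tested against 0 in a fit of all 6 arrays (3 residual degrees of freedom, prior 3.12). The age difference of mutant ratios used the 4 mutant arrays with genotype and age as terms (1 residual, prior 5.69). The level at 7 against 3 days used loess and Aquantile values with the pool as a block (2 residual, prior 3.94). P-values were Benjamini-Hochberg adjusted over all kept probes, with 0.05 as threshold, and the fits were tested on simulated data. For a probe not well above background on any array of one side, "at least" divides the bright mean by the dim side's floor, which is per array the lowest measurable signal or, if higher, the probe's own. It is open to dye bias.

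Members and lists were chosen with earlier results of these data known. Every member probe is named, with the 6 most similar probes (1 is not reported here), every measured sulfate donor gene, and the 3 genes of largest mean mutant ratio of a list that a count turns on. Slc34a1, Slc5a2, Fgb and the 3 related loci were added after their values were seen. So were Nat8, the further Ugt1a and Gstm genes, and the liver, lung and stomach genes named for the filter. Sequences are those of the array annotation and RefSeq. The alternatives were another background correction, normalization, scaling, filter and fold, and leaving out each array or pool.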

Additional observations from a re-analysis of the deposited data

How the results depend on the processing

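The direction of the 5 age calls and of the called differences on the arrays labelled +/+ was kept under every alternative run, and the Cy/+ and Cy/Cy means of the Sult1c2a and Sult1c2 probes stayed above 0. The count of probes that differed on the arrays labelled +/+ was 13914. It was 8403 after scaling between arrays and 6218 in a fit on those 2 arrays alone, and 12971 to 15015 without one of them. The share called higher was 59.1%, but 75.1% under median centring, 37.5% with the software's log ratios (median of all probes -0.23) and 68.7% after scaling. Median centring moved the median of all probes by 0.17 in Cy/+ and 0.15 in Cy/Cy.

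Probes 1.5-fold above the reference at both ages in Cy/+ numbered 218, and 3368 under median centring, 746 with the software's log ratios, 345 after scaling, 33 at 2-fold and 410 to 988 at a single age. Those below numbered 123, and 25, 532, 214, 16 and 398 to 565. In Cy/Cy 27 were above, and 1084, 195, 127, 3 and 98 to 128. None were below, and 24, 90 and 13 were under the first 3 settings and 41 to 86 at a single age. A single age asks less by construction.

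The age difference of the mutant ratios was called for 11 probes, and for 226 under median centring, 0 with the software's log ratios, 22 without the filter and 32 with the filter on the 4 mutant arrays (chosen after seeing the data). Leaving out an array there leaves no residual degrees of freedom and was not run. The age change of the level was called for 3002 probes, 717 after median scaling of processed signals, and 0 (without the reference pool) to 5746 (without Cy/+) when a pool was left out (125 without Cy/Cy).

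These values turned sign. On the arrays labelled +/+, Sult1b1 probe 1 was 0.075 under median centring and Sult1c2 probe 2 ran from -0.71 to 0.097 without one of the 2 arrays. Without the 7-day array, while keeping their direction, Sult1b1 probes 1 and 2 and Sult1c2 probe 2 were called lower (limma adjusted p = 0.0374, 0.0422 and 0.0416). In the age difference, Sult4a1 was -0.13 under median centring and Sult1c2 probe 2 was 0.090 with the software's log ratios. In the age change, leaving out a pool gave -0.026 (without Cy/+) to 0.25 for Sult1b1 probe 1 and -0.049 (without Cy/+) to 0.28 for probe 2. The cause of these changes was not tested. No paired analysis was possible because the labels carry no replicate numbers; age, which the genotypes share, was a term and the pool a block in the age fits.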
